A study of Saccharomyces cerevisiae with 16 samples.

Results

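Proteins of the large cytosolic ribosomal subunit carry RPL names in budding yeast, and most are encoded by a pair of near-identical gene copies. The members described here are the listed features named RPL1 to RPL43, with or without a final A or B. A feature that merges several genes was counted when every gene in it is an RPL gene. RPL22A, one of the genes deleted in the study, its copy RPL22B and the stalk proteins (RPP) were left out. The rule gave 47 rows of the 5574 listed. Of these, 24 rows hold 1 gene and 23 rows merge the 2 copies of a pair, so the rows cover 70 genes of 40 protein families. RPL40A and RPL40B are not members because they share a row with genes of other names, and RPL41A and RPL41B were not analysed here. All 47 rows passed the filter on low values.

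Ribosome footprints and mRNA were measured in 4 strains of *Saccharomyces cerevisiae* in the BY4741 background: wild type, and deletions of CAN1 (the arginine permease of the plasma membrane), RPL22A (a large subunit protein) and TOR1 (a kinase subunit of TORC1, which couples growth to nutrients). All strains were grown in YPD, a rich glucose medium, to an OD600 of 0.5. Footprints are the stretches of mRNA that ribosomes shield from RNase I; they were taken from the 80S fraction of lysates made with cycloheximide, an elongation inhibitor. The mRNA libraries came from poly(A) RNA broken by alkaline hydrolysis into fragments of 50 to 75 nt. Wild type and can1 had 3 footprint libraries each, and rpl22a and tor1 had 2 each. Of mRNA, wild type and can1 had 2 libraries each, and rpl22a and tor1 had 1 each. Nothing in the labels tells whether the replicates came from separate cultures, so a p-value measures the spread between these samples only, which may be technical.

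Footprint libraries held between 2.52 and 8.70 times 1e6 reads and mRNA libraries between 7.65 and 26.59 times 1e6. The deleted gene was low in its own strain. RPL22A footprints were 2.71 and 18.7 RPKM (reads per kilobase of listed length per 1e6 reads of the library) in rpl22a and at least 2699 RPKM in the other strains. CAN1 footprints were at most 0.25 RPKM in can1 against at least 40.6 RPKM elsewhere, and TOR1 footprints at most 0.08 RPKM in tor1 against at least 4.36 RPKM elsewhere. RPL rows took between 9.3 and 12.9% of the reads in listed features in footprint libraries and between 12.8 and 16.9% in mRNA libraries. Scaled RPKM, the level used below, is the deposited value brought to a common scale within each assay. A fold change is a difference of log2(scaled RPKM + 1), which understates the change of low rows.

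As background, each ribosome holds a single copy of nearly every large subunit protein. Yeast keeps their synthesis matched mainly through shared transcription control by Rap1, Ifh1, Fhl1 and Sfp1 downstream of TORC1 and protein kinase A, and unassembled copies are degraded. Ribosomal protein genes are also the main intron-bearing, highly expressed genes of this yeast. Of the 70 member genes, 48 have an intron within the coding sequence, and coding lengths run from 156 to 1164 bases.

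Wild-type footprint levels of most families lay close together. Summed over copies, 35 of the 40 families were within 2-fold of the median family, which had 5280 scaled RPKM. The 5 outside were RPL31, RPL17, RPL29, RPL7 and RPL39, all of them low. A row that merges 2 copies gives the mean over its copies, so rows rank differently from families. By the sum over copies RPL20 had the highest mean with 7480, then RPL10 with 7320 and RPL1 with 7130. The 4 rows with the highest level per row were RPL10, RPL3, RPL28 and RPL32, each of 1 gene. RPL10 joins the subunit late, in the cytoplasm, near the peptidyl-tRNA site. RPL3 lies next to the peptidyl transferase centre, and RPL28 is the site of classical cycloheximide resistance. RPL10 had 7430, 7551 and 6972 scaled RPKM in the 3 wild-type footprint libraries, and RPL3 had 6563, 6636 and 5836. RPL28 had 6970, 6130 and 5459, and RPL32 had 7013, 5803 and 5280. RPL10 lay above RPL3 and RPL28 in all 3 libraries, whereas RPL3, RPL28 and RPL32 overlapped and cannot be ordered beyond their spread.

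The 4 rows with the lowest wild-type footprint level were all single copies of pairs listed in separate rows. RPL31B had 278, 190 and 110 scaled RPKM, and RPL17B had 600, 566 and 396. RPL31A, its partner at the rim of the exit tunnel, had 1021, 777 and 669, and RPL33B had 920, 941 and 886. RPL31B, RPL17B and RPL31A followed each other without overlap, and RPL31A and RPL33B overlapped.

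In mRNA, 34 of 40 families were within 2-fold of the median family of 6410 scaled RPKM. By the sum over copies RPL42 and RPL1 had the highest means, 13100 and 12600, against 8170 for RPL10. Among rows, with merged rows as means over copies, RPL10 was highest with 9754 and 6592 scaled RPKM in the 2 wild-type libraries. RPL25 with 10130 and 5902, RPL3 with 9035 and 5637, and RPL30 with 7920 and 6249 came next. RPL25 sits at the tunnel exit, where the signal recognition particle docks, and RPL30 is known to bind its own transcript and repress its splicing. The replicate spread of each of these rows exceeded the differences between them. The lowest rows were RPL39 with 117 and 113, RPL31B with 783 and 857, RPL7A/RPL7B with 960 and 800, and RPL17B with 892 and 890.

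**Figure D1:**
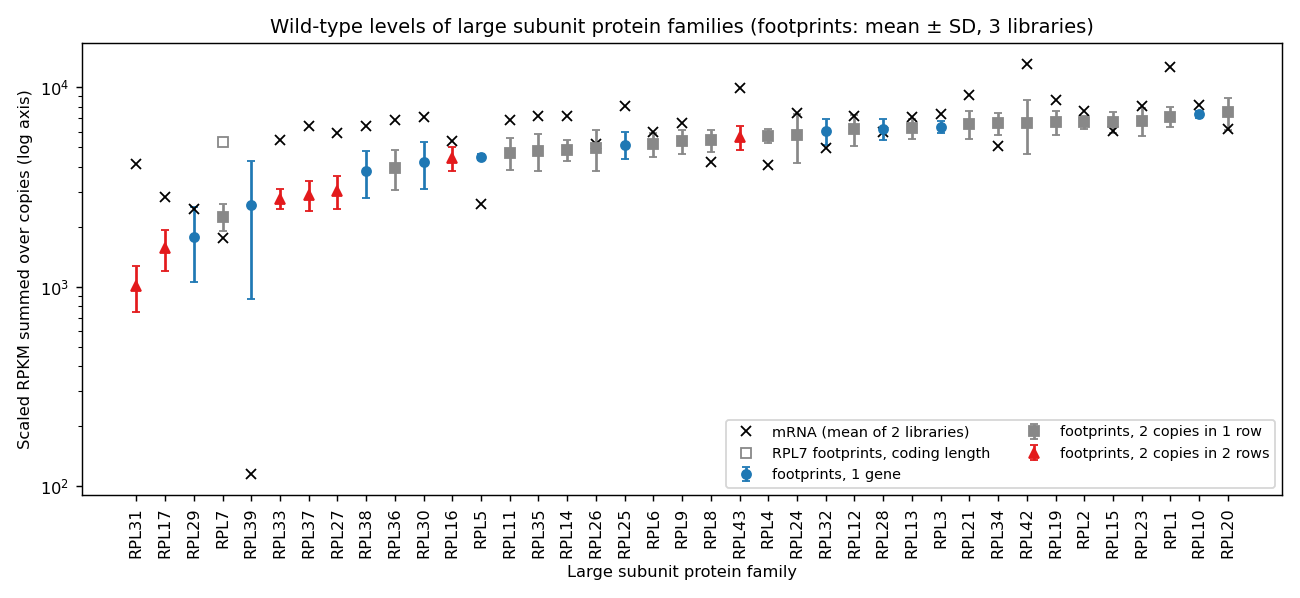
Wild-type levels of 39 of the 40 large subunit protein families, as scaled RPKM summed over copies on a log axis. Points with bars are footprint means ± SD of 3 libraries, coloured by whether the family has 1 gene, 2 copies in 1 row or 2 copies in 2 rows; crosses are mRNA means of 2 libraries. Footprints run from 1010 for RPL31 to 7480 for RPL20, and the mRNA cross of RPL39 lies apart at 115.

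The way a family is listed went with its level. The 7 families whose copies have separate rows (RPL16, RPL17, RPL27, RPL31, RPL33, RPL37 and RPL43) had a median footprint sum of 2900 scaled RPKM. The 23 merged families had a median of 5790 and the 10 families of a single gene 4830. In mRNA the same medians were 5420, 6880 and 6220. The coding sequences of separately listed copies are between 86.5 and 92.4% identical, and between 0.6 and 12.9% of the 28-base windows of the A copy occur in the B copy. Merged copies are between 89.4 and 99.4% identical and share between 6.9 and 88.7% of such windows. Over the 30 paired families the footprint sum and the shared windows had a Spearman correlation of 0.41, a description over families measured in the same libraries. For mRNA sums and shared 50-base windows it was 0.25. Both correlations used the RPL7 sums from the listed length, which departs from the coding length as given below. Lengths differ as well. In coding bases the A copies of the 7 have 600 (RPL16), 555 (RPL17), 411 (RPL27), 342 (RPL31), 324 (RPL33), 279 (RPL43) and 267 (RPL37). Merged A copies run from 303 (RPL36) to 1089 (RPL4). The sources used here do not give how reads matching both copies were counted. The parts of read counting and of length in the low sums of the 7 families were not tested.

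Listed lengths also bear on these levels. For 44 of the 47 rows the file lists the coding length minus 100 bases per gene. RPL29 and RPL24A/RPL24B depart from this by 3 and 14 bases. RPL7A/RPL7B is listed with 3013 bases against 1270 by that rule. With the coding length of the annotation in its place, a calculation added after seeing the data, its wild-type footprint sum was 5330 in place of 2250 and its mRNA sum 4180 in place of 1760, so that its place outside the 2-fold range follows from the listed length.

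Footprints over mRNA, the number of footprints per unit of mRNA, is often called translational efficiency. In wild type the median RPL row had a log2 ratio of −0.40, against −0.12 over all 4897 genes tested and −0.59 over 40 small subunit rows. Of the 47 RPL rows 10 were above 0. The RPL median was −0.14 in can1 (all genes −0.15), 0.42 in rpl22a (all genes −0.05) and −0.39 in tor1 (all genes −0.11). The rpl22a and tor1 values each rest on 1 mRNA library. Median RPL mRNA was −0.61 in can1 replicate 2 and −0.60 in rpl22a, on the log2 scale from the wild-type mean. Without can1 mRNA replicate 2 the median can1 difference from wild type in footprints over mRNA was 0.00. A difference between strains in this median therefore cannot be told apart from a difference between mRNA libraries. The scaling sets each assay to its own middle, so the ratio is relative and not footprints per molecule. RPL31B had the lowest log2 ratio with −2.18 ± 0.39 (SE), followed by RPL31A with −2.04 ± 0.19, RPL37B with −1.64 ± 0.17 and RPL33B with −1.10 ± 0.18. These 4 rows are again copies listed in separate rows, and both RPL31 copies fell within the lowest 2.1% of all genes tested.

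At the other end stood RPL5, which binds 5S rRNA together with RPL11, with 0.80 ± 0.08, RPL4A/RPL4B, whose loop lines the exit tunnel, with 0.50 ± 0.19, and RPL34A/RPL34B with 0.38 ± 0.21. RPL5 had 4418, 4676 and 4403 scaled RPKM in wild-type footprints and 2447 and 2731 in mRNA. The assays did not overlap for this gene on scales that are each set to their own middle and share no unit.

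RPL39 was far above the rest at 4.26 ± 0.56. It encodes the small basic protein of the tunnel wall and is the shortest member, listed with 56 bases, whereas mRNA fragments were 50 to 75 nt. Its whole coding sequence, read from genome build R64 (RefSeq), is shown because it is the shortest member, and it spans chrX:75933-76474 on the plus strand with 1 intron removed.
RPL39: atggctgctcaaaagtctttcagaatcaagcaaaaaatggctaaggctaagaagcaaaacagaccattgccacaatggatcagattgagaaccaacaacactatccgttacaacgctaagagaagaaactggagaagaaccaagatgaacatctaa
RPL39 had 4461, 2082 and 1172 scaled RPKM in wild-type footprints and 117 and 113 in mRNA. The mRNA values rest on 43 and about 168 reads, against 2071 (approximate), 565 and 163 reads in footprints. Whether fragment length set this ratio was not tested. Across the 47 rows the log2 ratio rose with listed length per gene (Spearman 0.53, and 0.64 without RPL39), against 0.33 over all genes tested, as a description over genes of the same libraries.

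**Figure D2:**
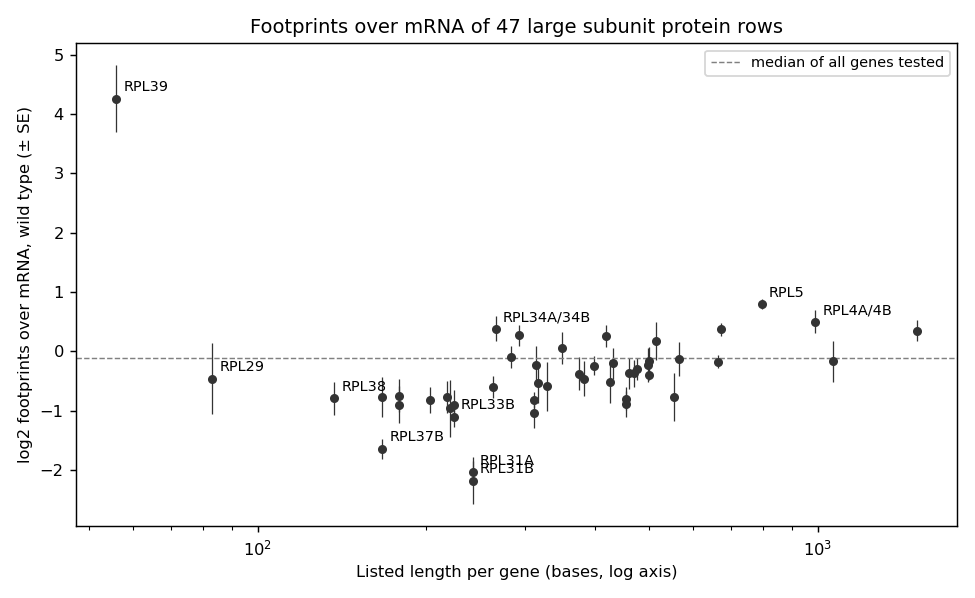
Log2 footprints over mRNA in wild type (± SE, 3 footprint and 2 mRNA libraries) of each large subunit protein row against its listed length per gene in bases on a log axis. RPL39 stands alone at 56 bases and 4.26, the RPL31 copies are the lowest points at −2.18 and −2.04, and the dashed line is the median of all genes tested.

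The single-copy members differed in how closely their replicates lay. RPL38 and RPL29, both dispensable for growth, had 4761, 3811 and 2789 and 2580, 1576 and 1184 scaled RPKM in wild-type footprints. RPL29 and RPL39, the shortest rows, had the largest spread relative to their mean among the 10 single-copy rows in wild-type footprints. RPL10 and RPL5 had the smallest, with means ± SD of 7320 ± 306 and 4500 ± 153 (n = 3). RPL25 had 6019, 5041 and 4424, and RPL30 had 5445, 3927 and 3271. In 7 of the 10 single-copy rows, all but RPL3, RPL5 and RPL10, the deepest wild-type library was the highest and the shallowest the lowest (8.56, 5.16 and 2.52 times 1e6 reads). Over all 47 rows the median deviation in these libraries was 0.21, 0.01 and −0.21 from the wild-type mean on the log2 scale. The 3 can1 libraries, with 8.70, 4.75 and 3.42 times 1e6 reads, gave 0.03, −0.24 and −0.24. The rpl22a libraries ran the other way, with 0.00 at 6.93 and 0.26 at 3.42 times 1e6 reads, and the tor1 libraries gave 0.15 at 3.36 and 0.08 at 5.81 times 1e6. The part of depth in these differences was not tested.

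**Figure D3:**
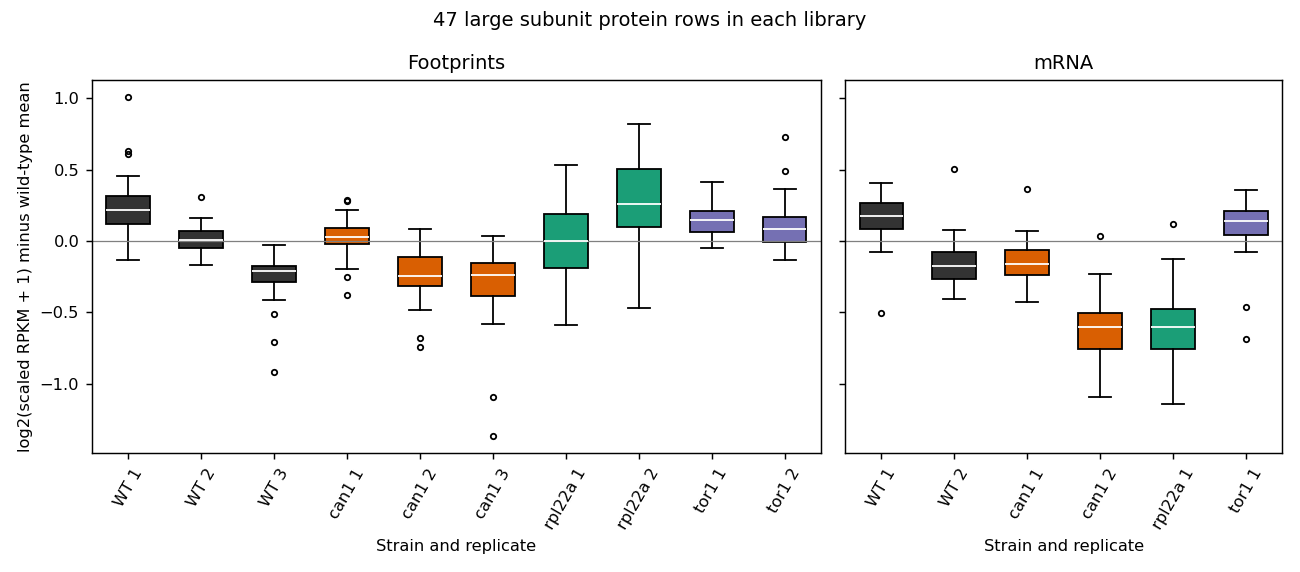
Deviation of the 47 large subunit protein rows from their wild-type mean, log2(scaled RPKM + 1), in each library; boxes show quartiles with the median in white, whiskers reach 1.5 times the quartile range. Wild-type footprint medians span 0.21 to −0.21, and in mRNA can1 replicate 2 and rpl22a lie lowest at −0.61 and −0.60.

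Copies listed in separate rows can be compared within a library, where depth and scaling cancel. The start of the coding sequence is shown for 4 of the 5 pairs whose share differed in a comparison below, the exception being RPL16. Each line gives the first 90 coding bases, read from genome build R64 (RefSeq), with introns removed, and capitals mark the bases at which the copies differ and a read must span such a base to match 1 copy alone. RPL17A lies at chrXI:109269-110129 on the plus strand and RPL17B at chrX:90786-91657 on the plus strand, and both encode the protein that lines the tunnel exit.
RPL17A: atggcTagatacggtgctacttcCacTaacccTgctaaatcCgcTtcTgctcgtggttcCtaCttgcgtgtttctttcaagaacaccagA
RPL17B: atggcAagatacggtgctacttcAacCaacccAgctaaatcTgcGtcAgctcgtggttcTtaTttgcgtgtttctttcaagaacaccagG
RPL33A lies at chrXVI:282122-282970 on the plus strand and RPL33B at chrXV:778555-779405 on the minus strand.
RPL33A: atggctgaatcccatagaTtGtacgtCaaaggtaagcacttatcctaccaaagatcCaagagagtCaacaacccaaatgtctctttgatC
RPL33B: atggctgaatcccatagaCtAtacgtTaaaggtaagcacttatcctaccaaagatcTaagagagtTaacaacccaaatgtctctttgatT
RPL43A lies at chrXVI:654166-654847 and RPL43B at chrX:608305-608858, both on the plus strand, and encode a zinc-binding protein.
RPL43A: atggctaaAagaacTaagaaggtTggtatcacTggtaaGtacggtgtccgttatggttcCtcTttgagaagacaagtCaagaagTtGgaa
RPL43B: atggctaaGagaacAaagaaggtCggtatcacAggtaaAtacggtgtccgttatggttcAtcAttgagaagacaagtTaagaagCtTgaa
RPL37A lies at chrXII:522663-523288 on the plus strand and RPL37B at chrIV:1450198-1450853 on the minus strand, and encode another zinc-binding protein.
RPL37A: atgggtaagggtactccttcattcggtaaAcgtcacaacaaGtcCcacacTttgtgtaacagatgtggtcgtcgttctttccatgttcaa
RPL37B: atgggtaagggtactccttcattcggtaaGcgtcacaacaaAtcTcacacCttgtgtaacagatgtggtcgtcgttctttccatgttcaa
The copies differ at 10 of these 90 bases for RPL17 and for RPL43, at 6 for RPL33 and at 4 for RPL37.

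In wild-type footprints the A copy supplied the larger part of 6 of the 7 pairs. The most unequal was RPL31, where RPL31A held 78.6, 80.3 and 85.9% of the summed level, followed by RPL16, where RPL16A held 28.8, 30.5 and 30.0%, and RPL27, where RPL27A held 72.2, 65.7 and 67.7%. The most equal were RPL43 with 65.3, 62.0 and 57.1%, RPL37 with 59.8, 66.8 and 66.5% and RPL33 with 69.8, 67.0 and 63.3%. RPL17A held 68.1, 66.1 and 66.2%. In no wild-type footprint library were the copies of a pair level, and RPL43 came nearest with 57.1%.

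For 2 of the 7 pairs the share differed between footprints and mRNA over the 16 libraries. RPL37A held between 59.8 and 69.4% in the 10 footprint libraries. In the 6 mRNA libraries its share was 53.8 and 45.7% (wild type), 44.7 and 47.2% (can1), 42.4% (rpl22a) and 55.5% (tor1), so the assays did not overlap. The log2 ratio of RPL37A over RPL37B was 0.90 ± 0.13 higher in footprints (limma, adjusted p = 5.23e-05 over 20 gene pairs named A and B). RPL16A held between 27.9 and 31.1% of footprints. The mRNA shares were 28.7 and 36.4% (wild type), 37.4 and 38.0% (can1), 36.6% (rpl22a) and 30.7% (tor1), and the assays overlapped through the first wild-type library and tor1. Its log2 ratio was 0.32 ± 0.09 lower in footprints (coded change −0.32, adjusted p = 0.00667). Of all 20 pairs, 75% passed this test, so a different share between the assays was the rule among pairs. Windows of 28 bases shared by RPL37 copies made up 12.9%, and windows of 50 bases 3.2%, so the fraction of reads that fit both copies can differ between the assays; its part was not tested.

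Strains were compared with limma over all genes that passed the filter, with Benjamini-Hochberg adjustment and a call at an adjusted p under 0.05. All 3 deletions were set against the same wild-type libraries. In can1 footprints 0 of 47 RPL rows were called, with 0 at an unadjusted p under 0.05, against 0.224% of the 4900 genes tested. On the log2 scale the median over RPL rows was −0.15 (all genes 0, small subunit rows −0.15), with 1 of 47 rows above 0. The median was −0.06 without wild-type replicate 1, −0.25 without wild-type replicate 3 and −0.07 with the trend of levels with gene length removed. In every row the can1 and wild-type libraries overlapped, whereas 4.69% of all genes lay wholly above and 3.73% wholly below wild type. The smallest p belonged to RPL43A, with 2890, 2780 and 2430 scaled RPKM in can1 against 4110, 3646 and 2735 in wild type. Its log2 change was −0.36 ± 0.16 (adjusted p = 1). RPL6A/RPL6B was at −0.20 ± 0.12 and RPL42A/RPL42B, at the tRNA exit site, at −0.31 ± 0.20. The labels give replicate numbers only. Wild-type and can1 libraries of the same number were taken as paired from correlations in these data (0.58, 0.17 and 0.33), and depth also fell with the number in both strains. With the number as a block 0 rows were called in the fit of all strains (0.327% of all genes). A limma fit of these strains alone, chosen after seeing the data, called 2 (0.597% of all genes). The 2 were the shortest rows, RPL39 with −0.63 ± 0.07 (adjusted p = 0.00893) and RPL29 with −0.50 ± 0.07 (adjusted p = 0.0254). They had 163 and 244 reads in the shallowest wild-type library.

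In rpl22a footprints 3 of 47 RPL rows were called, 1 higher and 2 lower, against 19.3% of all genes tested (9.82% higher and 9.47% lower), so RPL rows were not called more often than genes in general. RPL3 (YOR063W, chromosome XV, 444686 to 445849, plus strand, a single coding exon) had 4552 and 4576 scaled RPKM in rpl22a. It had 6563, 6636 and 5836 in wild type, 6242, 6119 and 6023 in can1 and 6595 and 6597 in tor1. The rpl22a libraries lay below all 8 others. The log2 change from wild type was −0.47 ± 0.10 (0.72-fold, adjusted p = 0.00686).

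RPL1A/RPL1B encodes the protein of the mobile L1 stalk at the tRNA exit site. RPL1A (YPL220W, chromosome XVI, 135790 to 136443, plus strand) and RPL1B (YGL135W, chromosome VII, 254641 to 255294, plus strand) are 99.4% identical over their single coding exons and share a row. The row had 2420 and 2602 scaled RPKM in rpl22a against 3992, 3521 and 3179 in wild type, 3539, 3045 and 3035 in can1 and 3681 and 3759 in tor1. Here too the rpl22a libraries lay below all 8 others. The log2 change was −0.50 ± 0.12 (0.707-fold, adjusted p = 0.0147). Without rpl22a replicate 1 or 2 it was −0.47 or −0.57 and no longer passed (adjusted p = 0.0749 and 0.0557). With the deposited values unscaled it was −0.34 (adjusted p = 0.0645).

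RPL37B (YDR500C, minus strand, at the position given with its sequence) was the row that rose. It had 1359 and 1673 scaled RPKM in rpl22a against 1135, 1136 and 820 in wild type, 889, 863 and 950 in can1 and 1165 and 1146 in tor1. The rpl22a libraries lay above all 8 others, and the log2 change was 0.57 ± 0.15 (1.48-fold, adjusted p = 0.0234). It was 0.41 without wild-type replicate 3 (adjusted p = 0.0514) and 0.40 without rpl22a replicate 2 (adjusted p = 0.216). In a fit of wild type and rpl22a alone it was 0.56 (adjusted p = 0.0622).

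Tested directly against the other deletions, RPL3 was lower in rpl22a than in can1 (−0.42 ± 0.10, adjusted p = 0.0101) and than in tor1 (−0.53 ± 0.10, adjusted p = 0.00767). RPL1A/RPL1B was lower than in tor1 (−0.57 ± 0.13, adjusted p = 0.0155) and at −0.35 from can1 (adjusted p = 0.0549). RPL37B was higher than in can1 (0.74 ± 0.15, adjusted p = 0.00594) and at 0.38 from tor1 (adjusted p = 0.144). RPL3 no longer passed against can1 without rpl22a replicate 2 (adjusted p = 0.0506) or against tor1 without tor1 replicate 1 (adjusted p = 0.0529). RPL1A/RPL1B no longer passed against tor1 without any one of the 4 libraries compared (adjusted p from 0.0516 to 0.0789). RPL37B no longer passed against can1 without rpl22a replicate 2 (0.58, adjusted p = 0.0781) or with the length trend removed (0.16, adjusted p = 0.43).

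Over all members these contrasts called 11 rows higher and 1 lower against can1 (23.7% of all genes were called, 11.9% higher and 11.7% lower). Against tor1 they called 0 rows higher and 2 lower (14.4% of all genes, 7.04% higher and 7.39% lower). The count against can1 was 0 without rpl22a replicate 2 (7.9% of all genes), 5 without rpl22a replicate 1 (13.7%), 3 without can1 replicate 3 (14.1%) and 6 without can1 replicate 2 (15.9%). With the length trend removed 0 rows were higher and 13 lower against can1 (19.3% of all genes called), 1 of them among the 12, and 0 were higher and 11 lower against tor1 (15.2%). With the deposited values unscaled 4 were higher and 2 lower against tor1 (16.7%).

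Most rows did not pass. Called rows included, 32 of the 47 were above 0 and the median was 0.19 against 0.03 over all genes and 0.09 over small subunit rows. The rpl22a libraries lay above all wild-type libraries in 7 rows and below them in 5, against 26.2 and 23.9% of all genes. The 7 were RPL37B, RPL17A, RPL43A, RPL33A, RPL37A, RPL14A/RPL14B and RPL2A/RPL2B, and the 5 included RPL3, RPL1A/RPL1B, RPL8A/RPL8B and RPL5. RPL17A had 1494 and 1507 scaled RPKM in rpl22a against 1279, 1106 and 776 in wild type (0.54 ± 0.18, adjusted p = 0.0554). RPL43A had 4218 and 5634 against 4110, 3646 and 2735 (0.50 ± 0.18, adjusted p = 0.0778), and RPL8A/RPL8B had 2104 and 2230 against 3052, 2761 and 2365 (−0.32 ± 0.13, adjusted p = 0.0994).

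The number of rows called and their split changed with the processing. Without wild-type replicate 1 there were 8 calls, 6 of them higher (20.1% of all genes were called), and without wild-type replicate 3 there were 4 calls, all lower (12.8%). Without rpl22a replicate 2 there was 1 call (6.65%). Without rpl22a replicate 2 the median RPL row was at −0.02. With the deposited values unscaled, which put the median of all genes at 0.17, 9 rows were higher and 1 lower (24.1% of all genes). Footprint changes in rpl22a also went with length over all genes (Spearman −0.42, n = 4900) and over the RPL rows (−0.57, n = 47). With that trend taken out of each library 0 rows were higher and 15 lower (17.3% of all genes), and the median RPL row was at −0.14. Small subunit rows also lay low in this setting. Their median was −0.20 with a coding intron (3 of 23 rows above 0) and −0.27 without (3 of 17). RPL3 was then at −0.50 (adjusted p = 0.000779) and RPL1A/RPL1B at −0.73 (adjusted p = 3.95e-05), whereas RPL37B was at 0.15 (adjusted p = 0.493).

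**Figure D4:**
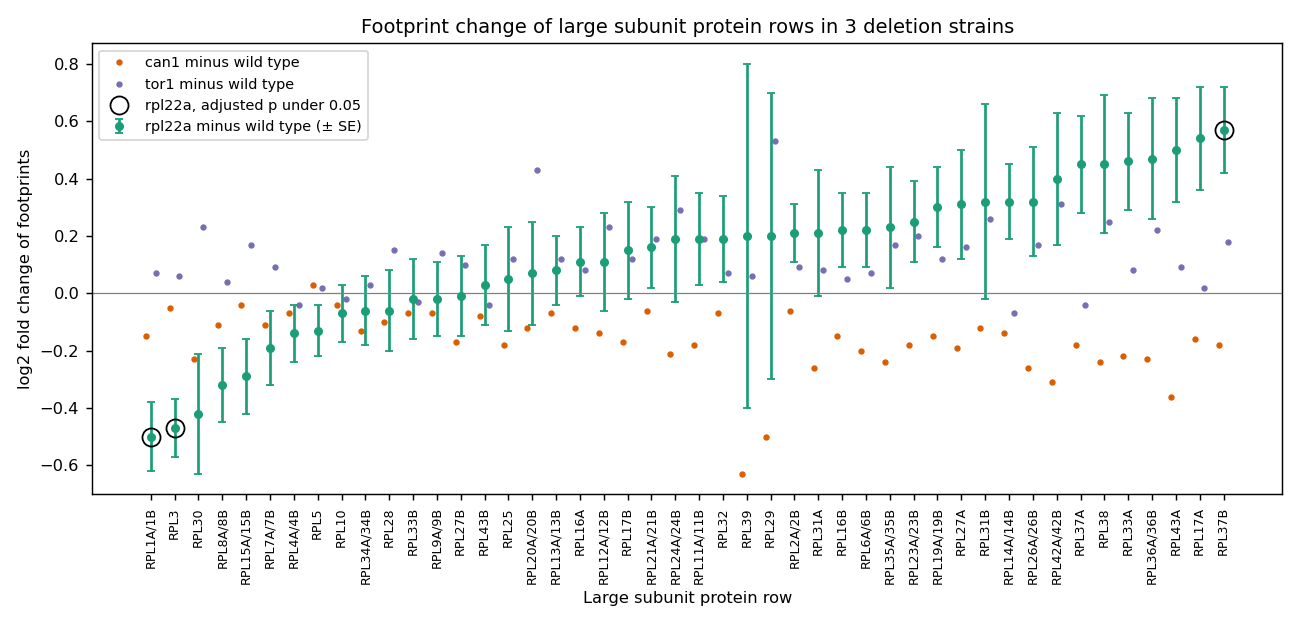
Log2 fold change of footprints from wild type for 46 of the 47 rows, ordered by the rpl22a change (green, ± SE, 2 against 3 libraries), with can1 in orange and tor1 in violet and no error bars; black rings mark the 3 rpl22a calls. RPL1A/RPL1B and RPL3 lie lowest at −0.50 and −0.47 and RPL37B highest at 0.57.

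Rows grouped by role showed the following in rpl22a footprints, where 19.3% of all genes were called. Of the 4 rows of proteins that join late in the cytoplasm (RPL10, RPL24, RPL29 and RPL42) 0 were called, with changes from −0.07 to 0.40 and RPL42A/RPL42B and RPL24A/RPL24B at the smallest p (0.40 and 0.19). The 5S rRNA partners were at −0.13 (RPL5) and 0.19 (RPL11A/RPL11B), with 0 of 2 called. Of the 10 rows of the exit tunnel and its rim 0 were called, with changes from −0.14 to 0.54, RPL17A and RPL19A/RPL19B (0.54 and 0.30) having the smallest p. Of the 10 single-copy rows 1, RPL3, was called, and the others were at −0.42 (RPL30), −0.13 (RPL5), −0.07 (RPL10), −0.06 (RPL28), 0.05 (RPL25), 0.19 (RPL32), 0.20 (RPL29), 0.20 (RPL39) and 0.45 (RPL38). In can1 and tor1 footprints 0 rows of any of these lists were called, against 0.224 and 0.0408% of all genes. Rows with an intron had a median change of 0.21 in rpl22a (26 of 33 above 0) and rows without one −0.05 (6 of 14 above 0). With the length trend removed the medians were −0.12 and −0.27, and the rows with introns are also shorter, with a median listed length per gene of 311 bases against 496. Small subunit rows gave 0.12 with an intron and 0.05 without. All other rows tested, RPL22 and the stalk left out, gave 0.19 with an intron (97 of 154 above 0) and 0.02 without (2418 of 4652). As fitted, the difference was thus not particular to RPL rows. With the length trend removed, medians with and without an intron were −0.20 and −0.27 in small subunit rows. In all other rows they were then 0.01 and 0.01. The parts of introns and of length in these differences were not tested.

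The balance between copies differed in rpl22a for 3 of the 7 pairs, RPL17, RPL33 and RPL43, in each toward the A copy. Of all 20 pairs, 55% passed the same test. The 20 include the 7 RPL pairs and the RPL22 pair, whose ratio the deletion of RPL22A itself changes. RPL17A held 73.0 and 71.9% of the RPL17 footprints in rpl22a. Its share was 68.1, 66.1 and 66.2% in wild type, 66.3, 66.8 and 67.8% in can1 and 66.1 and 64.7% in tor1. The rpl22a libraries lay above all 8 others, and the log2 ratio of the copies rose by 0.39 ± 0.08 (limma, adjusted p = 0.00437). In the single rpl22a mRNA library RPL17A held 69.2%, against 67.9 and 68.7% in wild type.

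RPL33A held 74.8 and 72.4% in rpl22a, against 69.8, 67.0 and 63.3% in wild type, 67.1, 62.6 and 63.5% in can1 and 68.3 and 68.7% in tor1. The groups did not overlap, and the log2 ratio rose by 0.47 ± 0.14 (adjusted p = 0.0235). The rpl22a mRNA library had 70.8%, above the other 5 mRNA libraries, which had between 61.9 and 65.4%. RPL43A held 69.3 and 68.5% in rpl22a, against 65.3, 62.0 and 57.1% in wild type, 56.4, 57.5 and 57.0% in can1 and 60.7 and 66.4% in tor1. The log2 ratio rose by 0.47 ± 0.15 (adjusted p = 0.0317), and the rpl22a mRNA library had 66.3% against between 57.5 and 62.5% in the others. RPL27A was at 72.8 and 73.5% in rpl22a footprints, with a ratio change of 0.32 ± 0.14 that did not pass (adjusted p = 0.0908). RPL16, RPL31 and RPL37 did not pass either, with changes of −0.11, −0.11 and −0.12. Leaving out wild-type replicate 2 or 3 or rpl22a replicate 1 left 1 of the pairs called, RPL17, with RPL33 and RPL43 at adjusted p from 0.0541 to 0.14. In can1 and tor1 footprints and in can1 mRNA, limma called 0 of the 7 pairs and 0 of the 20, with 0 of the 7 at an unadjusted p under 0.05.

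**Figure D5:**
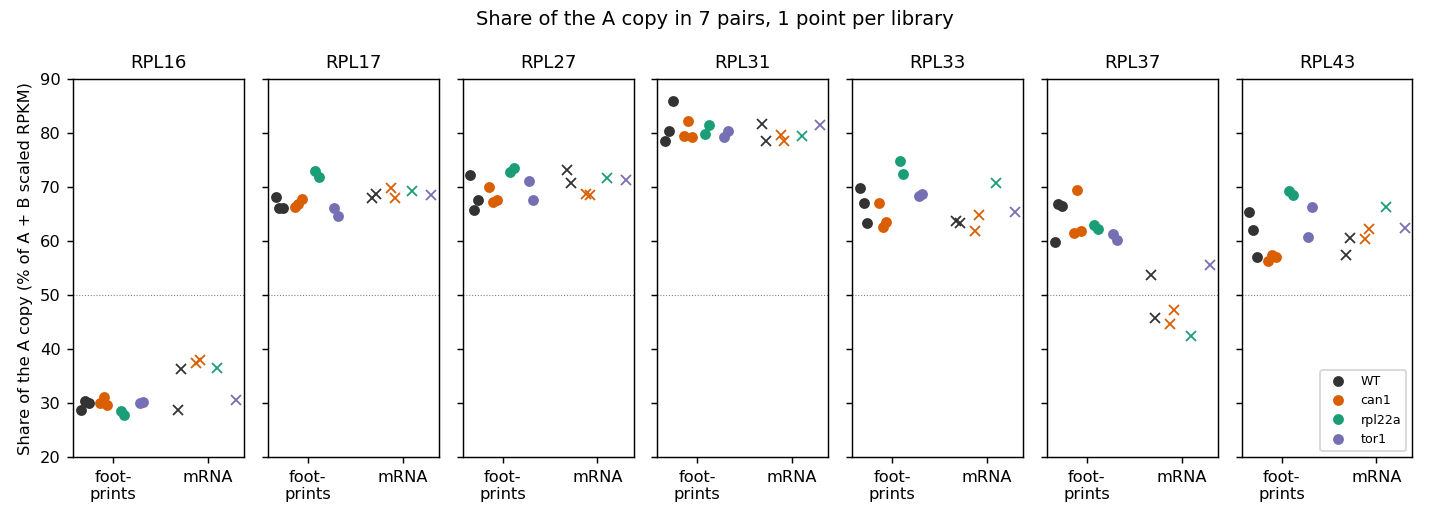
Share of the A copy in the summed scaled RPKM of each separately listed pair, 1 point per library, with footprints as circles and mRNA as crosses, coloured by strain; the dotted line marks 50%. The rpl22a footprint points lie above all others for RPL17, RPL33 and RPL43, and RPL37 footprints lie above all RPL37 mRNA points.

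In tor1 footprints 0 of 47 RPL rows were called by limma, with 1 at an unadjusted p under 0.05, against 0.0408% of all genes. Over RPL rows the median was 0.10 (all genes 0, small subunit rows 0.09) and 40 of 47 rows were above 0. The median was 0.00 without wild-type replicate 3 and 0.22 without wild-type replicate 1. The row with the smallest p was RPL20A/RPL20B, which had 4795 and 5207 scaled RPKM in tor1 against 4502, 3579 and 3146 in wild type. Both tor1 libraries lay above wild type, with a log2 change of 0.43 ± 0.18 (adjusted p = 0.653). RPL23A/RPL23B followed at 0.20 ± 0.14 and RPL21A/RPL21B at 0.19 ± 0.14. RPL37B was the other row with both tor1 libraries above wild type, and in 0 rows were both below (12.4% of all genes lay above and 12.3% below).

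In can1 mRNA 0 of 47 rows were called by limma, with 0 at an unadjusted p under 0.05, against 1.38% of the 5281 genes tested. The median RPL row was at −0.39 (all genes 0, small subunit rows −0.41), 1 of 47 rows was above 0, and in 9 rows both can1 libraries lay below both wild-type libraries, with 0 rows wholly above (14.1 and 15.7% of all genes). RPL42A/RPL42B had 5101 and 2942 scaled RPKM in can1 against 8322 and 4740 in wild type (−0.70 ± 0.40, adjusted p = 0.776). RPL25 had 5749 and 3844 against 10130 and 5902 (−0.72 ± 0.41), and RPL1A/RPL1B had 4801 and 2955 against 8000 and 4592 (−0.69 ± 0.39). In each of these rows the first can1 library was close to the second wild-type library and the second can1 library was the lowest. Relative to the wild-type mean, the median over RPL rows was 0.18 and −0.18 for wild type, −0.16 and −0.61 for can1, −0.60 for rpl22a and 0.14 for tor1. Wild-type replicate 2 and can1 replicate 1 differed by a median of 0.05 over the RPL rows, wild-type replicate 1 and tor1 also by 0.05, and can1 replicate 2 and rpl22a by 0.11, whereas the wild-type replicates differed by 0.35 and the can1 replicates by 0.49. Without can1 replicate 2 the median was −0.16 and without wild-type replicate 1 it was −0.23. Small subunit rows moved alike, at −0.63 in can1 replicate 2 and −0.72 in rpl22a. What these couples of libraries share was not tested.

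The single rpl22a mRNA library lay below both wild-type libraries in 46 of 47 RPL rows and above both in 0, against 37 and 39.7% of all genes, with a median of −0.60. No test was made for this single library, and can1 replicate 2, of another genotype, was as low. RPL3 had 3619 scaled RPKM in this library against 9035 and 5637 in wild type, RPL1A/RPL1B had 2744 against 8000 and 4592, and RPL37B had 2726 against 3311 and 3046. All 3 were thus lower in mRNA, including RPL37B, which was higher in footprints. RPL29 was the row not below wild type. The single tor1 mRNA library was above both wild-type libraries in 13 RPL rows and below in 4 (28.3 and 29.4% of all genes), with a median of 0.14.

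For footprints over mRNA in can1, limma called 0 of 47 rows, with 0 at an unadjusted p under 0.05, against 0.0204% of all 4897 genes. Against wild type the median over RPL rows was 0.24 on the log2 scale, with 42 of 47 rows above 0, and the median was 0.00 without can1 mRNA replicate 2 and 0.06 without wild-type mRNA replicate 1. The smallest p belonged to RPL4A/RPL4B (0.36 ± 0.21), RPL43B (0.51 ± 0.30) and RPL1A/RPL1B (0.54 ± 0.33), each with an adjusted p of 1. In rpl22a the median difference from wild type was 0.75 and in tor1 −0.04, as values with no test, and each rests on 1 mRNA library. Small subunit rows were alike, with medians of 0.24 in can1, 0.78 in rpl22a and −0.06 in tor1.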

How the data were processed

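Per the file headers, each deposited table gives RPKM (reads per kilobase per 1e6 reads) beside the name and length of a coding frame. Per the submitters' processing notes, the authors used Bowtie 1.1.2 and genome build R64. The sources used here do not give how multiply matching reads were assigned. Low RPKM values fall on even steps, from which library totals and read numbers were recovered (3 libraries, namely the first of wild-type footprints, the second of wild-type mRNA and that of rpl22a mRNA, are means of 2 runs, so their read numbers are approximate). Gene names came from the R64 annotation, which matched 5789 of 5793 identifiers.

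RPKM was scaled within each assay by trimmed means of log ratios (trimming 30% by fold and 5% by level), with a pseudocount of 1. Genes were kept when their level equalled 10 reads of a library of median depth in 2 or more footprint or 1 or more mRNA libraries, with 15 reads summed over libraries, and were fitted with limma 3.58.1 (trend, robust; R 4.3.3, statmod 1.5.0), and p-values were adjusted over all genes. Every strain was in the fit. Footprints over mRNA used the interaction of assay and strain over 16 libraries, which treats assays from the same lysates as independent. The moderation pooled mRNA variances over genes. Copy ratios were fitted over 20 gene pairs, the RPL22 pair among them. The fits were tested on simulated data. Library totals set the counting precision of each level. RPKM of merged rows are means over copies.

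The members and lists were chosen with earlier results of these data known. Named rows are those past the threshold, or the 3 with the smallest p, the 4 highest and lowest levels and ratios, the pairs with the most and least equal shares, all single-copy rows, and 2 per role list. Results of 1 row are not reported here. Other rows are named after their values were seen, as rows whose groups did not overlap or whose listed length departed from the rule.

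Replicate numbers were checked on deviations from strain means: footprint libraries of wild type and can1 with the same number correlated at 0.58, 0.17 and 0.33, so they were taken as paired. Wild-type and rpl22a gave −0.28 and −0.07, wild-type and tor1 0.00 and 0.02. Alternatives were the pseudocount (0.1 and 5), scaling, filter, length trend (lowess, span 0.5), 2 strains alone, a replicate block and leaving out each library.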

Additional observations from a re-analysis of the deposited data

Results flagged for a closer look

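Members called in rpl22a against wild type were also tested against the other deletions in the same fit, and 4 of these differences passed. RPL3 footprints were lower in rpl22a than in can1 by a log2 difference of −0.42 (limma, adjusted p = 0.0101) and than in tor1 by −0.53 (adjusted p = 0.00767), with both rpl22a libraries below every can1 and tor1 library. RPL1A/RPL1B was lower than in tor1, at −0.57 (adjusted p = 0.0155). RPL37B was higher than in can1, at 0.74 (adjusted p = 0.00594). Leaving out 1 library put RPL3 at adjusted p = 0.0506 against can1 (rpl22a replicate 2) and 0.0529 against tor1 (tor1 replicate 1). RPL1A/RPL1B against tor1 passed in 0 of the 4 fits without 1 library (adjusted p from 0.0516 to 0.0789), and RPL37B against can1 was at 0.0781 without rpl22a replicate 2 and 0.43 with the length trend removed. These contrasts share the rpl22a libraries with the comparison to wild type, so they are not separate evidence of the rpl22a level.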

How the results depend on the processing

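Counts of RPL rows called in rpl22a against wild type (3) were 10 without scaling, 15 with the length trend removed and from 1 to 8 without 1 library. Against can1 (12) they were from 0 to 18 and against tor1 (2) from 0 to 1 without 1 library; against tor1 they were also 6 without scaling and 11 with the length trend removed. With the length trend removed RPL23A/RPL23B, called against can1, was at −0.01 (adjusted p = 0.956). The cause was not tested. In can1 footprints, where numbers were taken to pair libraries, a replicate block in the fit of 2 strains, chosen after seeing the data, called 2 rows. Elsewhere libraries share only a number (in can1 mRNA, with 2 numbers, the deviations correlated at 0.10). The replicate block called 2 rows in rpl22a (10.4% of all genes), 0 in the fit of 2 strains (6.5%) and 2 against can1 (11.5%). In the fit of 2 strains RPL3 was at −0.54 (limma, adjusted p = 0.149). The 2 against can1 were RPL37B and RPL43A, so RPL3 did not pass there either. In can1 mRNA the block called 7 rows, all lower, in both fits (2.54 and 2.53% of all genes). The block put the tor1 footprint median of 0.10 at 0.00. RPL pairs called in rpl22a (3) ranged from 1 to 4 without 1 library, those of can1 mRNA (0) from 0 to 2, and those between assays (2) from 2 to 3. The block changed no other count by over 1.5 times. Over all counts of calls, 123 stayed within 1.5 times of the values above and 23 moved further. The 123 include counts of 0 that stayed 0, and they take the number of calls alone, not their direction. Of the values of single rows or pairs, 321 stayed on their side of the threshold, 72 no longer passed, 7 newly passed and 1 reversed. The 321 include rows that had not passed to begin with, named for the smallest p where under 3 rows were called. The 72 all come from rows or pairs that had passed, so the 321 do not measure how stable the calls were.

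Footprint libraries of as few as 2.52 times 1e6 reads limit short rows most: RPL31B had 66 and RPL39 163 reads in the shallowest. Intervals of read numbers cover counting error only. With 2 rpl22a libraries, the number of rows called and the split into higher and lower changed with the libraries and scaling used.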
